A study of Homo sapiens with 14 samples.

Results

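The 10 genes described here encode alpha- and beta-tubulins, the subunits of the microtubule. They were taken by gene symbol, without use of any measured value, from the 60683 gene identifiers counted in each library: the 4 alpha genes TUBA1A, TUBA1B, TUBA1C and TUBA4A, and the 6 beta genes TUBB, TUBB2A, TUBB2B, TUBB3, TUBB4B and TUBB6. All 10 were found, and all 10 had counts in every one of the 14 libraries.

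RNA was sequenced from A549, a lung cancer cell line, and SUM159, a breast cancer cell line. A549 cells were untreated or were given, for 10 days, 2 µM palbociclib (an inhibitor of CDK4 and CDK6), 0.5 µM indisulam (a sulfonamide that directs the splicing factor RBM39 to degradation) or both drugs together, and a further A549 group received 0.5 µM PF-06873600, which inhibits CDK2 as well as CDK4 and CDK6, for 7 days. SUM159 cells were untreated or received 0.5 µM PF-06873600 for 7 days. Each of the 7 groups had 2 libraries, which the submitters call technical duplicates, so that every p-value below measures the spread between such libraries and not between separate cultures. The lines were grown in different media, and the sources used here do not give the day on which untreated cells were collected.

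Microtubules are polymers of alpha-beta tubulin dimers that form the mitotic spindle, the tracks of intracellular transport and the core of cilia. The genes of each family encode similar proteins, called isotypes, that differ most in their acidic C-terminal tails, where motor proteins and modifying enzymes bind. Cells also adjust tubulin mRNA to the amount of free tubulin: when free dimers rise, the factor TTC5 recognises the first residues of a tubulin as it leaves the ribosome and, through SCAPER and the CCR4-NOT complex, the mRNA is degraded.

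The coding sequences show how close the members are to each other. The last 60 coding bases before the stop codon, from the GENCODE 44 canonical transcripts on hg38, are shown for 4 of the beta genes because they encode the tails in which isotypes differ. Capitals mark the codons GAA, GAG, GAT and GAC, which encode acidic residues:
TUBB: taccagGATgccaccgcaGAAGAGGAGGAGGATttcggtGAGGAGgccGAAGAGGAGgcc
TUBB2A: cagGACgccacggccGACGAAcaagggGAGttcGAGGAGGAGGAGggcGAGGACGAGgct
TUBB2B: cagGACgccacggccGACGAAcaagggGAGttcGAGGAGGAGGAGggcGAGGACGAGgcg
TUBB3: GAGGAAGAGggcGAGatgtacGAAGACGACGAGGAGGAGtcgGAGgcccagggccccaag

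The whole coding sequences of TUBA1A and TUBA1B were 97.2% identical. TUBB2A and TUBB2B shared 98.1% of coding bases and 98.3% of tail bases, while the lowest coding identity within the beta family was 80.9%, between TUBB and TUBB6. In each of the 6 beta genes, 11 of the 20 tail codons encoded an acidic residue.

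The first 12 coding bases encode the residues that TTC5 reads. They were ATGCGTGAGTGC in TUBA1A, TUBA1B and TUBA1C and ATGCGTGAATGC in TUBA4A. In the beta family they were ATGAGGGAAATC in TUBB and TUBB4B, ATGAGGGAGATC in TUBB3 and TUBB6, ATGCGCGAGATC in TUBB2A and ATGCGTGAGATC in TUBB2B.

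TUBA1A (chr12:49184686-49189080, minus strand, hg38) and TUBA1B (chr12:49127782-49131397, minus strand) are neighbours on chromosome 12, and their mRNAs moved in opposite directions under the combination in A549 and under PF-06873600 in SUM159. Their promoters are shown for that reason, as the 250 bases before the RefSeq start on GRCh38.p14, TUBA1A at chr12:49189081-49189330 and TUBA1B at chr12:49131396-49131645, both on the minus strand. Capitals mark the CCAAT box on either strand (CCAAT or ATTGG):
TUBA1A: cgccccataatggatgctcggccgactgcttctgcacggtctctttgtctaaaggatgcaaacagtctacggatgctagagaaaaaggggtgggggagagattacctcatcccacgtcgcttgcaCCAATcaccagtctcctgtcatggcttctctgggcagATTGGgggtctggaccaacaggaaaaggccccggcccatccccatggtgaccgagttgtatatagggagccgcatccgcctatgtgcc
TUBA1B: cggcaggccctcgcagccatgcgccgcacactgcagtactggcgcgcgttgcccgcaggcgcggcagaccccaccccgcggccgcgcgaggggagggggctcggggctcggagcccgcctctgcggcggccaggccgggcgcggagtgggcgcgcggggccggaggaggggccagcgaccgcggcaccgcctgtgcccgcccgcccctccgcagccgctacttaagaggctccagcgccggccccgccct

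The TUBA1A window held 2 CCAAT boxes and no GC box (GGGCGG, either strand), and the TUBA1B window held no CCAAT box and 3 GC boxes. Over the 10 members, all with a RefSeq promoter, 5 windows held CCAAT and 5 held GGGCGG, against 32.01% and 42.6% of 35116 promoters of the same length. The cell cycle homology element TTTGAA was in 2 windows, those of TUBA1C and TUBB4B, against 13.3% of all promoters, its variant TTCGAA in 0 against 1.19%, and TATAAA in 1, that of TUBB2A, against 10.7%. None of the motifs searched contains another. These are letter matches in fixed windows and say nothing of factor binding.

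Sequence likeness limits how surely a 65-base read, the length sequenced here, can be placed. Of all 65-base windows of the canonical transcript, 81.3% in TUBA1B, 61.3% in TUBB2A and 53.5% in TUBB2B had a further exact copy on a primary chromosome or in another annotated gene, and 41.0% did in TUBA1A. TUBB6 had 0% such windows and TUBB4B 11.5%, so these were the members with the least shared sequence. For TUBB the share was 28.7% on primary chromosomes but 95.02% when alternate contigs, which carry further copies of the TUBB region, were counted. For TUBB3 the 92.7% came from a readthrough gene annotated over it on the same strand, ENSG00000198211, which had 0 counts in all 14 libraries. These 0 counts do not show that TUBB3 was fully counted, since reads in the shared part may have been set aside as ambiguous. Levels, shares and fold changes of TUBB3 may therefore rest on part of its exons only. How reads with several placements were treated is known only from summary lines of the count files, in which 8.59% to 10.9% of reads were set aside for low mapping quality and 3.02% to 3.47% as ambiguous between genes. Levels of TUBA1B, TUBB, TUBB2A, TUBB2B and TUBB3 are therefore uncertain as absolute values, and reads may have been divided unevenly within the pairs TUBA1A and TUBA1B, and TUBB2A and TUBB2B. Exons of genes on the other strand overlapped 43.96% of TUBA1B exon bases (TUBA1B-AS1), 21.2% of those of TUBB6 (AFG3L2) and 20.0% of those of TUBA4A (STK16 and TUBA4B). They overlapped 22.7% of TUBA1C exon bases (ENSG00000258232 and TUBA1A) and 10.8% of those of TUBA1A (TUBA1B-AS1 and TUBA1C), so the members TUBA1A and TUBA1C overlap each other. The libraries were strand-specific, but whether counting used strand is not given in the sources used here.

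**Figure D1:**
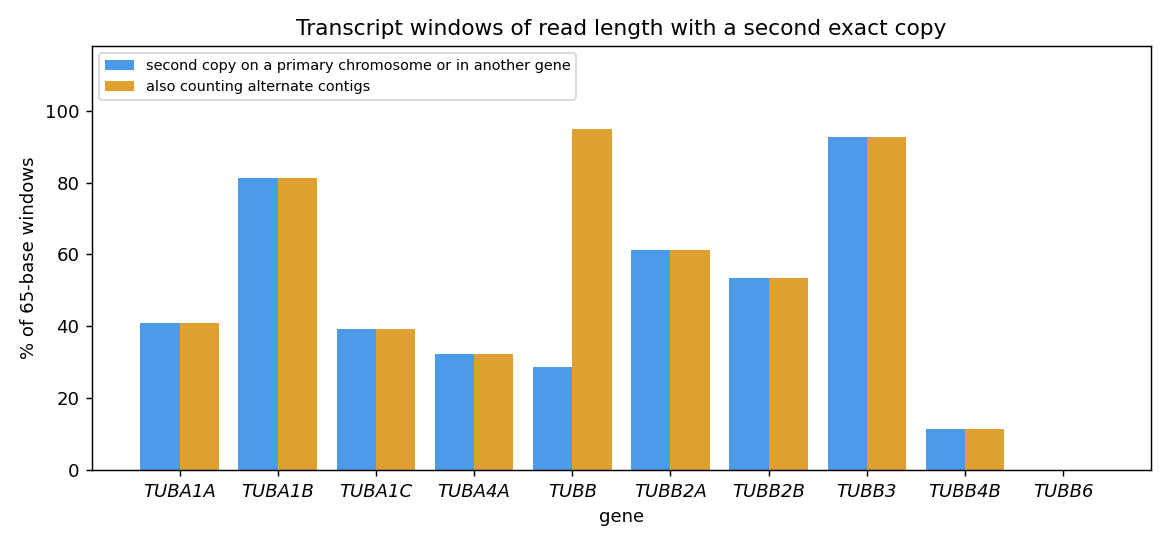
Share of 65-base transcript windows (y axis, percent of the windows of the canonical transcript) with another exact copy, for each member (x axis), without (blue) and with (orange) alternate contigs of hg38. TUBB6 stands at 0% and TUBB rises from 28.7% to 95.02% when alternate contigs are counted.

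Libraries held 13060374 to 21149256 counts on genes, and levels are given as counts scaled to a common total of 1000000 (CPM), so that a CPM is a share of the counted mRNA and not an amount per cell. In bulk RNA, fewer cells with a transcript and less transcript per cell cannot be told apart. CDKN2A, which A549 lacks, was at 0 in all 10 A549 libraries and at 0 to 0.181 CPM in SUM159. Epithelial markers (EPCAM, CDH1, KRT8, KRT18 and KRT7) summed to 5371 to 6236 CPM in untreated A549, 8733 to 8862 under palbociclib, 9728 to 9732 under indisulam, 12592 to 13140 under the combination and 13762 to 13856 under PF-06873600, and to 2532 to 2676 CPM in untreated and 1139 to 1175 CPM in treated SUM159. Mesenchymal markers (VIM, CDH2, ZEB1 and FN1) summed in the same order to 2250 to 2482, 2269 to 2459, 3083 to 3210, 3682 to 3727 and 3016 to 3153 CPM in A549, and to 7333 to 7776 CPM in untreated and 17569 to 17680 CPM in treated SUM159. By edgeR's test against untreated cells, 2 of these 4 were higher and 1 lower in treated SUM159 (38.1% and 35.6% of all genes). Their median log2 fold change there was 0.21, and the split was 3 and 1 with edgeR's TMM scaling. In A549, 1 was higher and 0 lower with palbociclib (8.30% and 7.40%), and 4 and 0 with indisulam (28.0% and 17.5%). With the combination 3 were higher and 0 lower (35.1% and 30.0%), and with PF-06873600 4 and 0 (28.5% and 27.8%). Summed mitosis genes (12 genes, among them MKI67 and CCNB1) were 810 to 861 CPM in untreated A549, 667 to 695 under palbociclib, 706 to 723 under indisulam, 174 to 176 under the combination and 457 to 478 under PF-06873600, and 3101 to 3218 CPM in untreated and 968 to 970 CPM in treated SUM159. By the same test, 3 of the 5 epithelial markers were higher and 1 lower with palbociclib (8.30% and 7.40% of all genes). With indisulam 4 were higher and 0 lower (28.0% and 17.5%). With the combination 3 were higher and 2 lower (35.1% and 30.0%), and so they were with PF-06873600 in A549 (28.5% and 27.8%). In treated SUM159, 1 was higher and 3 lower (38.1% and 35.6%). The levels of these marker and mitosis genes moved with many of the results below, and their part in them was not tested.

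In untreated cells of both lines the same 4 genes stood highest among the 10. Per length of annotated exon, the level in untreated A549 was highest for TUBB, the widely expressed class I beta-tubulin (139 ± 2.65 CPM per kilobase, SD, n = 2), then TUBA1B, a widely expressed alpha-tubulin (106 ± 1.94), TUBB4B (73.0 ± 6.10) and TUBA1C (48.1 ± 1.18). TUBA4A (19.0 ± 0.660), TUBA1A (6.27 ± 0.387), TUBB6 (4.77 ± 0.526), TUBB2A (2.35 ± 0.0486), TUBB2B (0.550 ± 0.0611) and TUBB3 (0.150 ± 0.0470) followed. No neighbours in this order overlapped. With the length of the longest transcript, TUBA1A (9.11 ± 0.563) and TUBB6 (8.69 ± 0.959) did. So did TUBA1C (75.8 ± 1.87) and TUBB4B (73.1 ± 6.10), whose order also turned. In untreated SUM159 the order began with TUBB (721 ± 38.6), TUBB4B (432 ± 21.1), TUBA1B (373 ± 23.2) and TUBA1C (153 ± 5.75), with TUBB6 (71.7 ± 1.67) now above TUBA4A (61.3 ± 3.71). TUBB4B and TUBA1B lay within their spread of each other there with the longest transcript (432 ± 21.1 and 417 ± 25.9).

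SUM159 held more tubulin mRNA than A549 for 9 of the 10 genes. The 10 genes summed to 1432 CPM in untreated A549 and 6438 CPM in untreated SUM159. Among the 9, TUBB6, the class V beta-tubulin, differed most: it was at 17.3 and 20.3 CPM in untreated A549 and at 287 and 278 CPM in untreated SUM159. This was 15.0-fold higher, a log2 difference of 3.91 ± 0.07 (standard error). TUBB was at 575 and 560 CPM in untreated A549 against 3045 and 2822 CPM in SUM159, 5.17-fold higher. TUBB4B was at 158 and 140 CPM against 910 and 850 CPM, 5.92-fold higher. In all 3 genes the lines did not overlap, and with a single line of each tissue the comparison describes these lines only.

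The exception was TUBB2B, a class II beta-tubulin known from developing neurons. It had 31 and 37 counts in untreated A549 libraries (2.11 and 2.47 CPM) and 3 and 2 counts in untreated SUM159 libraries (0.181 and 0.125 CPM). The ratio of A549 to SUM159 was 14.9, with a 95% interval from counting error alone of 6.08 to 47.4. Its near-identical partner TUBB2A went the other way, from 6.93 and 6.73 CPM in A549 to 28.2 and 29.0 CPM in SUM159. All 10 members passed the test between the untreated lines, 9 higher and 1 lower in SUM159, where 78.7% of the 17279 genes tested did, 41.9% higher and 36.8% lower.

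**Figure D2:**
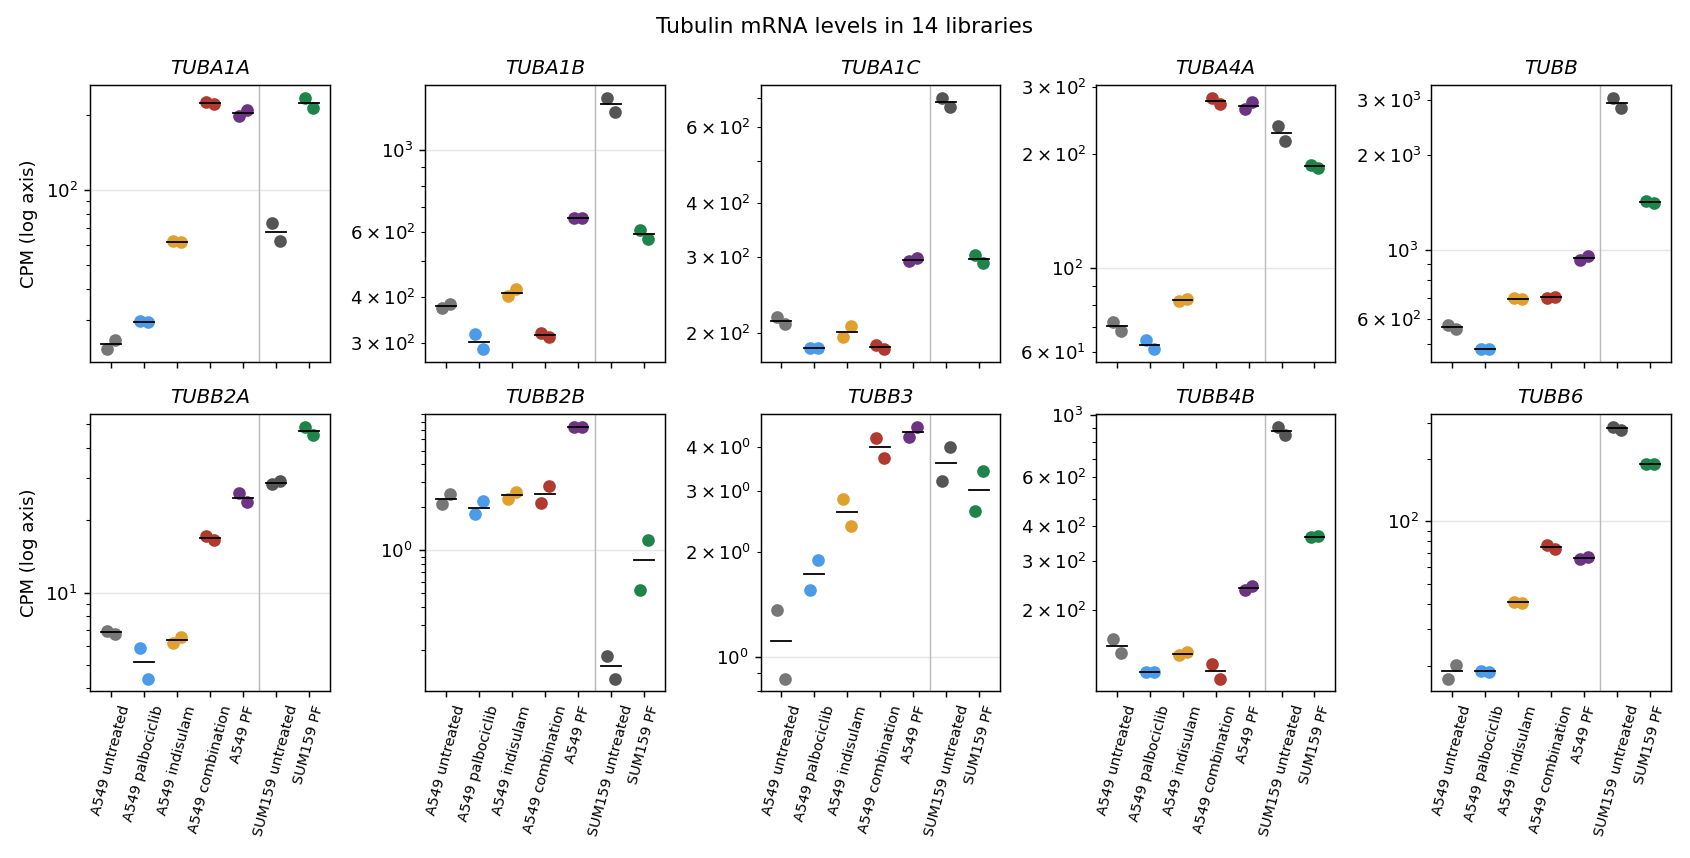
Level of each member (y axis, CPM on a log axis with its own range in each panel) in each of the 14 libraries, by group (x axis, PF for PF-06873600), with the line at the group mean of 2 libraries. TUBA1A rises from 22.9 and 25.0 CPM to 226 and 222 CPM under the combination in A549, while TUBA1B falls from 1391 and 1274 CPM to 609 and 576 CPM in treated SUM159.

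The tubulin changes that passed the test with palbociclib alone were small. TUBA1A, known as the main alpha-tubulin of postmitotic neurons, went from 22.9 and 25.0 CPM to 29.7 and 29.5 CPM. TUBA1B went from 374 and 383 CPM to 317 and 288 CPM, and TUBB4B from 158 and 140 to 120 and 120 CPM. In these 3 genes the treated and untreated libraries did not overlap, and the largest of the changes that passed the test was 0.799-fold, in TUBA1B. By edgeR's quasi-likelihood test with Benjamini-Hochberg adjustment over all 15780 genes, TUBA1A rose (log2 fold change 0.30 ± 0.08, adjusted p = 0.0133), and TUBA1B (-0.32 ± 0.06), TUBA1C (-0.21 ± 0.05), TUBB (-0.23 ± 0.05) and TUBB4B (-0.31 ± 0.07) fell. The 5 members called (1 higher, 4 lower) compare with 15.7% of all genes tested, 8.30% higher and 7.40% lower. TUBA4A, TUBB2A, TUBB2B, TUBB3 and TUBB6 did not pass, with TUBB6 at 18.8 and 18.7 CPM against 17.3 and 20.3 CPM. TUBB3 was at 1.56 and 1.89 CPM against 1.36 and 0.867 CPM, 1.56-fold (log2 0.64 ± 0.30), on 13 to 31 counts a library. TUBB2A was at 5.86 and 4.39 CPM against 6.93 and 6.73 CPM, 0.743-fold (log2 -0.43 ± 0.16). The 5 calls were fragile: 0 members passed when only palbociclib and untreated libraries were fitted.

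Indisulam alone raised TUBA1A, TUBB6 and TUBB3 more than 2-fold and left the abundant genes near their untreated level. TUBA1A reached 62.1 and 61.5 CPM, 2.58-fold the untreated level. TUBB6 reached 40.8 and 40.2 CPM, 2.16-fold. TUBB3, the class III beta-tubulin used as a neuronal marker, went from 1.36 and 0.867 CPM to 2.83 and 2.38 CPM, on 13 to 41 counts a library, 2.33-fold (log2 1.22 ± 0.28). In each of the 3 genes both treated libraries lay above both untreated ones. TUBB rose 1.23-fold, from 575 and 560 CPM to 701 and 696 CPM, and TUBA4A 1.17-fold, from 72.0 and 68.5 to 81.8 and 83.1 CPM. In all 5 members passed, all higher, against 45.5% of all genes called, 28.0% higher and 17.5% lower. With edgeR's TMM scaling the 5 became 4 higher and 1 lower, as TUBA4A was lost (adjusted p = 0.0685) and TUBA1C fell (-0.16, adjusted p = 0.0301), and the split over all genes went from 4420 higher and 2757 lower to 3613 and 3558.

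Under the combination, the minor alpha-tubulin genes TUBA1A and TUBA4A rose while TUBA1B and TUBA1C fell. TUBA1A reached 226 and 222 CPM, 9.33-fold the untreated level (log2 3.22 ± 0.07). TUBA4A went from 72.0 and 68.5 CPM to 282 and 271 CPM, 3.93-fold. For both genes the lowest library under the combination exceeded the highest of the untreated, palbociclib and indisulam libraries. TUBA1B went the other way, from 374 and 383 CPM to 319 and 312 CPM, 0.833-fold. TUBA1C went from 218 and 210 CPM to 188 and 184 CPM, 0.869-fold. The falls of TUBA1B and TUBA1C were small, yet larger than the spread between libraries.

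Among the beta genes, the minor isotypes TUBB6, TUBB3 and TUBB2A rose most, while the minor isotype TUBB2B did not pass the test. TUBB6 reached 76.6 and 73.4 CPM, 3.99-fold the untreated level (log2 1.99 ± 0.08). TUBB2A went from 6.93 and 6.73 CPM to 17.2 and 16.5 CPM, 2.46-fold. TUBB3 reached 4.25 and 3.73 CPM, 3.57-fold, on 58 to 60 counts a library. In each of the 3 genes both libraries lay above those of untreated cells and of either single drug. TUBB, the most abundant, reached 702 and 706 CPM, 1.24-fold. TUBB4B, a class IV beta-tubulin also used in cilia, went from 158 and 140 CPM to 128 and 114 CPM, 0.813-fold, and TUBB2B stayed at 2.13 and 2.83 CPM (log2 0.12 ± 0.23). In all, 6 members rose and 3 fell against untreated, where 65.2% of all genes passed (35.1% higher, 30.0% lower). The median log2 fold change of the members was 0.80 and that of all genes 0.05.

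Neuronal markers are given beside TUBA1A, TUBB3 and TUBB2A, which neurons also express. The 8 genes MAP2, RBFOX3, NEFL, NEFM, DCX, SYP, ELAVL4 and SNAP25 summed to 57.0 to 58.5 CPM in untreated A549, 67.7 to 70.4 CPM under palbociclib, 109 to 119 CPM under indisulam, 137 to 140 CPM under the combination and 104 to 105 CPM under PF-06873600. The sum was thus higher under indisulam, where TUBA1A and TUBB3 rose and TUBB2A did not (log2 -0.11). Of the 7 markers tested, 4 were higher and 0 lower under indisulam (28.0% and 17.5% of all genes), 4 higher and 1 lower under the combination (35.1% and 30.0%; 4 and 2 with TMM scaling), and 2 higher and 2 lower under PF-06873600 (28.5% and 27.8%), where their median log2 fold change was 0.20. Between the combination and indisulam 2 were higher and 2 lower (22.0% and 23.9% of all genes), and the interaction was positive for 1 and negative for 3 (10.7% and 14.5%). Under the combination DCX was at a mean of 1.21 CPM, ELAVL4 at 0 and RBFOX3 at 2.89 CPM, below its 12.6 CPM in untreated cells, while NEFL was at 76.7 CPM against 8.55 CPM. Their part in the tubulin levels was not tested.

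Against each single drug, the same 5 members were higher in the combination: TUBA1A, TUBA4A, TUBB2A, TUBB3 and TUBB6. Against palbociclib, TUBA1A was 7.56-fold, TUBA4A 4.39-fold, TUBB6 3.99-fold, TUBB2A 3.31-fold and TUBB3 2.29-fold higher, and TUBB was 1.46-fold higher as well. Thus 6 members rose and 0 fell against palbociclib, where 60.4% of all genes passed, 33.5% higher and 26.9% lower. TUBA1B (1.04-fold), TUBA1C (1.01-fold) and TUBB4B (1.01-fold) did not pass, and their sign turned with TMM scaling. Against indisulam, TUBA1A was 3.62-fold, TUBA4A 3.35-fold, TUBB2A 2.65-fold, TUBB6 1.85-fold and TUBB3 1.53-fold higher, and TUBA1B (0.768-fold) and TUBB4B (0.866-fold) were lower. That made 7 members (5 higher, 2 lower) against 46.0% of all genes, 22.0% higher and 23.9% lower, of which TUBB3 and TUBB4B were lost with DESeq2 (adjusted p = 0.179 and 0.0995).

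The interaction term asks whether the combination departs from the sum of the single-drug effects on the log2 scale. It was positive and passed the test for 5 members: TUBA4A (1.90 ± 0.09), TUBB2A (1.83 ± 0.20), TUBA1A (1.55 ± 0.10), TUBB6 (0.89 ± 0.12) and TUBB (0.25 ± 0.07). TUBA4A was the clearest case, since it was at 64.7 and 61.1 CPM with palbociclib, 81.8 and 83.1 CPM with indisulam and 282 and 271 CPM with both. TUBB2A was at 5.86 and 4.39, 6.15 and 6.54, and 17.2 and 16.5 CPM in these groups. Over all genes 25.2% passed, 10.7% with a positive and 14.5% with a negative term. TUBB3 rose in the combination with an interaction near 0 (-0.03 ± 0.35), on 13 to 60 counts a library in these groups. The call of TUBB was lost in each fit that left out a palbociclib, indisulam or combination library, with an adjusted p between 0.0561 and 0.0667.

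**Figure D3:**
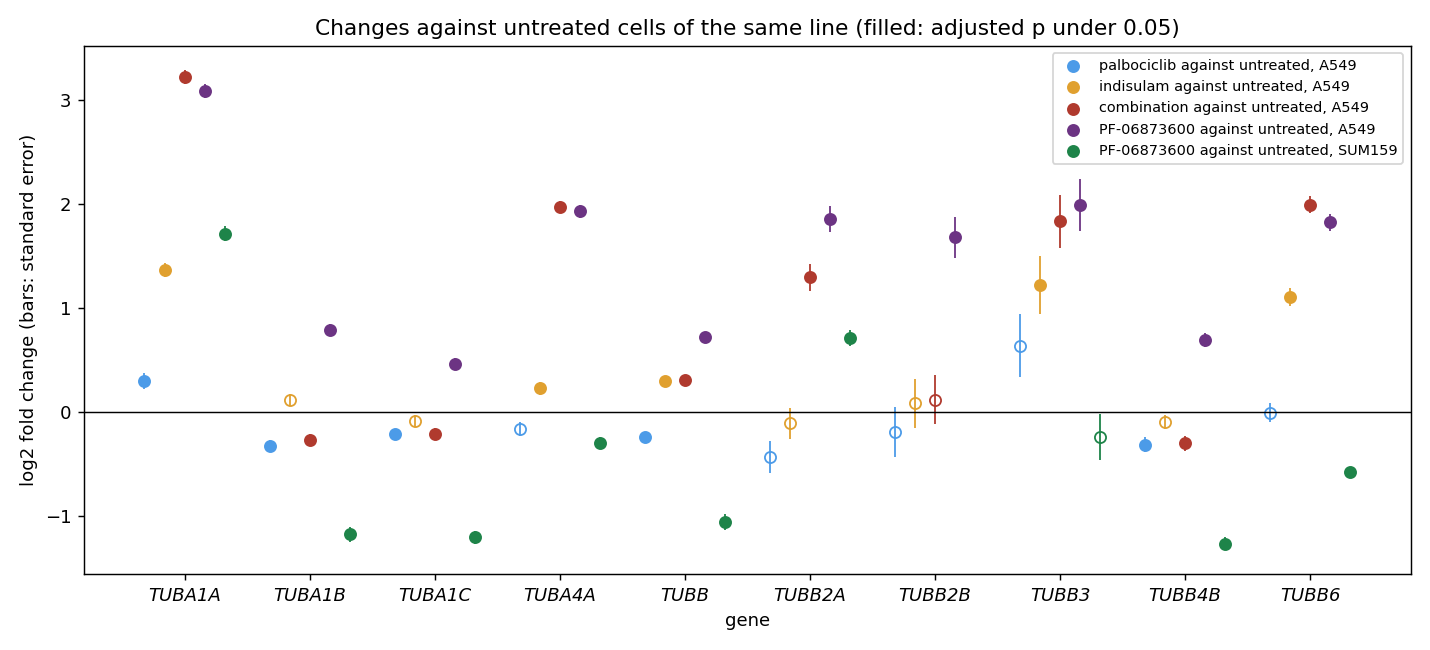
Log2 fold change of each member (x axis) against untreated cells of its own line (y axis), with bars for the standard error, filled where the edgeR adjusted p was under 0.05. The A549 points share their 2 untreated libraries; those for the combination and PF-06873600 lie at 3.22 and 3.09 for TUBA1A, and the SUM159 points of the abundant genes TUBA1B, TUBA1C, TUBB and TUBB4B lie below -1.

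PF-06873600 raised all 10 members in A549. TUBA1A reached 198 and 209 CPM, 8.50-fold the untreated level. TUBA4A reached 262 and 274 CPM, 3.82-fold. Both genes lay far above their untreated range of 22.9 to 25.0 and 68.5 to 72.0 CPM. TUBB3 reached 4.29 and 4.58 CPM (3.98-fold), TUBB2A 25.8 and 23.7 CPM (3.62-fold), TUBB6 65.8 and 67.4 CPM (3.54-fold) and TUBB2B 7.35 and 7.36 CPM (3.21-fold). TUBB2B was at 1.78 to 2.83 CPM in all 8 other A549 libraries. The abundant genes rose as well: TUBA1B to 655 and 654 CPM (1.73-fold), TUBB to 924 and 954 CPM (1.65-fold), TUBB4B to 237 and 245 CPM (1.62-fold) and TUBA1C to 293 and 299 CPM (1.38-fold). For the abundant genes the lowest of these values exceeded the highest in any other A549 group. The 10 of 10 compares with 56.3% of all genes called, 28.5% higher and 27.8% lower.

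Palbociclib was given at 2 µM for 10 days and PF-06873600 at 0.5 µM for 7 days, so the drugs are set side by side without a test. TUBA1B was at 317 and 288 CPM with palbociclib and 655 and 654 CPM with PF-06873600, and TUBA1A at 29.7 and 29.5 against 198 and 209 CPM.

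In SUM159 the same dose and time of PF-06873600 lowered the abundant genes. TUBB went from 3045 and 2822 CPM to 1424 and 1404 CPM, 0.482-fold (log2 -1.05 ± 0.08). TUBA1B went from 1391 and 1274 CPM to 609 and 576 CPM, 0.445-fold. TUBB4B went from 910 and 850 CPM to 366 and 368 CPM, 0.417-fold. TUBA1C fell in step with them, from 702 and 665 CPM to 304 and 291 CPM, 0.435-fold. TUBB6 went from 287 and 278 to 189 and 191 CPM, 0.672-fold, and TUBA4A from 236 and 217 to 187 and 184 CPM, 0.818-fold. In all 6 genes the treated libraries lay below the untreated ones.

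TUBA1A and TUBB2A rose in treated SUM159, as they did in A549. TUBA1A went from 73.6 and 62.3 CPM to 235 and 213 CPM, 3.29-fold (log2 1.72 ± 0.07). TUBB2A went from 28.2 and 29.0 CPM to 48.8 and 45.1 CPM, 1.64-fold. TUBB2B went from 3 and 2 counts to 9 and 25 counts, a ratio of 5.79 with a 95% counting interval of 2.25 to 18.9, and it was left out of the test by the filter on low counts. TUBB3 stayed at 2.63 and 3.40 CPM against 3.20 and 4.01 CPM (log2 -0.24 ± 0.22, edgeR adjusted p = 0.337). Of the 9 members tested, 2 rose and 6 fell, against 73.7% of the 15055 genes tested (38.1% higher, 35.6% lower). Neuronal markers summed to 92.2 to 94.7 CPM in untreated and 263 to 267 CPM in treated SUM159, of which MAP2 made up a mean of 91.6 and 252 CPM, with 5 and 2 of the 8 genes at 3 counts or fewer; their part in the rise of TUBA1A was not tested.

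The response to PF-06873600 was lower in SUM159 than in A549 for 9 of the 10 members. The difference of the log2 fold changes, tested as an interaction over all 14 libraries, was -2.40 ± 0.09 for TUBB6, -2.23 ± 0.34 for TUBB3, -2.22 ± 0.08 for TUBA4A, -1.96 ± 0.09 for TUBA1B and for TUBB4B, -1.78 ± 0.08 for TUBB and -1.67 ± 0.08 for TUBA1C. For TUBA1A (-1.37 ± 0.11) and TUBB2A (-1.14 ± 0.15) the difference was one of size, since both rose in both lines. For TUBA1B, TUBA1C, TUBA4A, TUBB, TUBB4B and TUBB6 it was one of direction, a rise in A549 and a fall in SUM159. TUBB2B gave 0.78 ± 0.64 and did not pass. Of all 17279 genes, 53.0% passed, 25.8% higher and 27.2% lower in SUM159. After treatment the lines stood closer together for the abundant genes than before it: TUBA1B was at 655 and 654 CPM in A549 and 609 and 576 CPM in SUM159, and TUBA1C at 293 and 299 CPM and 304 and 291 CPM.

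**Figure D4:**
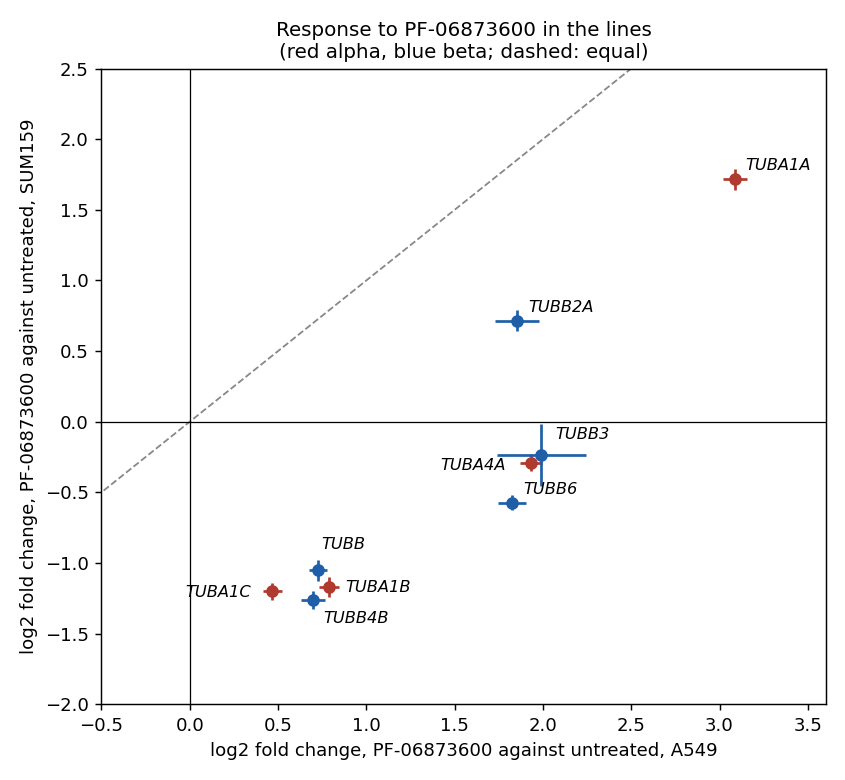
Log2 fold change with PF-06873600 in A549 (x axis) against that in SUM159 (y axis) for the 9 members tested in both lines, alpha genes in red and beta genes in blue, with bars for the standard error. All 9 points lie below the dashed line of equal response, and 7 lie below 0 on the SUM159 axis.

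The make-up of each family shifted with these changes. Per length of annotated exon, TUBA1A made up 3.50% ± 0.21 (SD, n = 2) of the mRNA of the 4 alpha members in untreated A549, 5.13% with palbociclib, 8.14% with indisulam, 22.2% ± 0.12 with the combination and 14.2% with PF-06873600. TUBA4A made up 10.6%, 11.3%, 11.2%, 28.4% and 19.3% in the same groups. TUBA1B made up 59.1% ± 0.92 in untreated A549, 33.5% ± 0.11 with the combination and 48.8% with PF-06873600. Thus the counted shares of TUBA1A and TUBA4A together passed that of TUBA1B under the combination, and the same held with the longest transcript as length (23.6% and 30.7% against 27.4%). Neither length allows for shared sequence. Windows with a further exact copy made up 81.3% in TUBA1B, 41.0% in TUBA1A and 32.4% in TUBA4A. Reads of TUBA1B may thus be undercounted, and whether its mRNA was passed is uncertain. In SUM159 TUBA1A went from 2.93% ± 0.18 to 17.1% ± 0.53 of the alpha members and TUBA1B from 61.6% to 48.6%.

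The 6 beta members kept their order at the top. TUBB made up 58.4% to 67.7% of their summed mRNA in all 7 groups, and TUBB4B 23.0% to 35.0%. Beta genes outside the 6 are not in these sums, among them TUBB4A, at a mean of 15.3 CPM in untreated A549 and 36.5 CPM with the combination. TUBB6 went from 2.17% in untreated A549 to 7.37% with the combination and from 5.81% to 8.13% in SUM159. TUBB2A never exceeded 2.73%, and TUBB2B and TUBB3 each stayed below 0.5%. These shares are descriptions, without a test, and shared windows make them uncertain. This holds for the split within TUBA1A, TUBA1B and TUBA1C, where 39.3% of TUBA1C windows had a further copy. It also holds for TUBB (95.02% with alternate contigs) against TUBB4B (11.5%). The share of TUBB3 may be too low, as reads it shares with the readthrough gene may not have been counted.

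Summed over the 10 genes, the level was 1432 CPM in untreated A549, 1210 CPM with palbociclib, 1647 CPM with indisulam, 1925 CPM with the combination, 2705 CPM with PF-06873600, and 6438 CPM in untreated and 3321 CPM in treated SUM159. The ratio of the 4 alpha to the 6 beta members per length was 0.814 ± 0.033, 0.817 ± 0.034 and 0.784 ± 0.022 in A549 untreated, with palbociclib and with indisulam. It was 1.02 ± 0.001 with the combination and 0.996 ± 0.008 with PF-06873600, above all other A549 libraries. The size of the ratio depends on the transcript length assumed and on the genes summed, so a value near 1 does not show equal alpha and beta mRNA. In SUM159 it was 0.490 ± 0.004 untreated and 0.576 ± 0.019 treated.

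**Figure D5:**
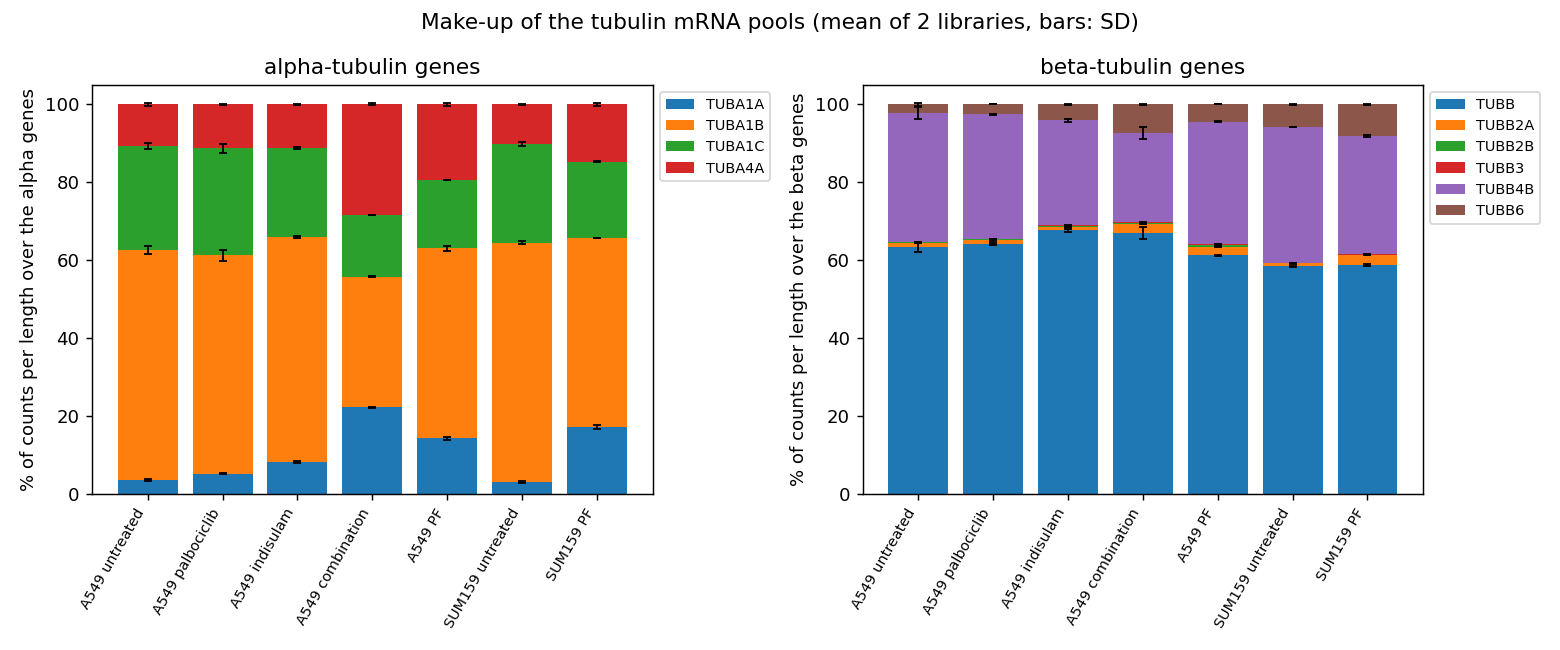
Make-up of the mRNA of the 4 alpha members (left) and the 6 beta members (right) in percent of the summed CPM per kilobase of annotated exon (y axis) for the 7 groups (x axis, PF for PF-06873600); bars are means of 2 libraries and whiskers the SD of each share. TUBA1A and TUBA4A grow to 22.2% and 28.4% of the alpha genes under the combination, while TUBB stays between 58.4% and 67.7% of the beta genes.

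Tubulin dimers are folded by prefoldin, the chaperonin CCT and the tubulin cofactors. Of 23 genes of this folding route, 18 fell and 2 rose in SUM159 with PF-06873600 (35.6% and 38.1% of all genes), with a median log2 fold change of -0.52 against 0.02 over all genes. The largest falls were in the CCT subunits TCP1 (680 ± 35.1 to 275 ± 0.745 CPM, log2 -1.31 ± 0.06), CCT5 (949 ± 53.3 to 386 ± 10.1 CPM, -1.30 ± 0.07) and CCT6A (563 ± 20.6 to 246 ± 1.48 CPM, -1.19 ± 0.06). In A549 the same list gave 5 higher and 3 lower with PF-06873600, against 28.5% and 27.8% of all genes. With the combination it gave 4 higher and 5 lower, or 3 and 9 with TMM scaling, against 35.1% and 30.0% of all genes, and ARL2 (log2 -0.57), PFDN6 (-0.47) and PDCL3 (0.42) moved most. The difference between the lines was lower in SUM159 for 15 and higher for 2 of the 23, against 27.2% and 25.8% of all genes. Of the 3 genes of tubulin mRNA autoregulation, TTC5, SCAPER and CNOT11, 1 rose and 2 fell in treated SUM159, where 73.7% of all genes passed. With the combination 1 rose, where 65.2% of all genes passed, and 0 did with TMM scaling.

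The gamma-tubulin ring complex, which seeds microtubules, showed 2 higher and 2 lower of 11 genes with the combination in A549, or 2 and 3 with TMM scaling, against 35.1% and 30.0% of all genes. In treated SUM159 it showed 1 higher and 7 lower, against 38.1% and 35.6%. There TUBGCP3 went from 63.0 ± 1.75 to 21.2 ± 1.21 CPM (log2 -1.58), TUBGCP4 from 115 ± 0.597 to 44.4 ± 0.827 CPM (-1.37) and MZT1 fell by 0.76 on the log2 scale. With the combination in A549 MZT1 fell by 0.65, and TUBG2 (0.93 ± 0.14) and TUBGCP6 (0.55 ± 0.20) rose.

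Of 36 genes for proteins that bind microtubules, 34 were tested in A549, where 23 rose and 6 fell with the combination, against 35.1% and 30.0% of all genes, with a median log2 fold change of 0.46 against 0.05 over all genes. MAP1B, a microtubule binder of neurons, went from 174 ± 13.2 to 786 ± 4.03 CPM (log2 2.18 ± 0.08), MAP6, which protects microtubules from cold, from 2.12 ± 0.267 to 10.6 ± 0.198 CPM (2.31 ± 0.17), and KIF2C, a mitotic depolymerase, fell from 25.2 ± 0.821 to 2.96 ± 0.275 CPM (-3.08 ± 0.13). In treated SUM159, 11 of 32 rose and 17 fell, against 38.1% and 35.6% of all genes. DCLK1, a doublecortin-like kinase, went from 1.25 ± 0.618 to 11.4 ± 0.330 CPM (log2 3.17 ± 0.22), MAP1A from 3.52 ± 1.14 to 10.8 ± 1.01 CPM (1.63), and TPX2, a spindle assembly factor, from 361 ± 16.8 to 127 ± 2.75 CPM (-1.50).

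Of 22 enzymes that modify or detyrosinate tubulin, 20 were tested in each line. With the combination 5 rose and 5 fell, against 35.1% and 30.0% of all genes. The largest changes at 10 CPM or more were in TTLL7 (log2 0.97 ± 0.12), which adds glutamates to beta-tubulin tails, TTLL3 (0.87 ± 0.26) and the detyrosinase MATCAP1 (0.65 ± 0.24). In treated SUM159, 10 rose and 6 fell, against 38.1% and 35.6% of all genes, and the largest changes at 10 CPM or more were in TTLL7 (1.44 ± 0.08), TTLL3 (1.24 ± 0.18) and the deglutamylase AGTPBP1 (1.10 ± 0.15). Among 12 other tubulin genes, 5 were tested in A549, of which 2 rose and 2 fell with the combination (3 with TMM scaling), where 65.2% of all genes passed. TUBB4A (1.26 ± 0.11), TUBG2 and TUBE1 (-0.79 ± 0.15) were those of at least 10 CPM. In treated SUM159, 4 of 7 rose and 1 fell, where 73.7% of all genes passed, with TUBG1, the main gamma-tubulin, at -0.44 ± 0.06 and TUBG2 at 0.42 ± 0.12.

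Among all 9922 genes with at least 10 CPM on average, the genes whose profile over the 7 group means was most like that of TUBA1B, by the root mean square difference of centred log2 CPM, were RRP1 (0.133), TYMS (0.166) and ADCY3 (0.176), and the member TUBA1C (0.145) came between the first and the second of them. For TUBB they were HAUS2 (0.144), SNHG12 (0.196) and SLC20A1 (0.211), and the closest member was TUBB4B (0.253). TUBB2B (1.89, on low counts), TUBA1A (1.31), TUBB6 (0.945), TUBB2A (0.846) and TUBA4A (0.785) were far from the profile of TUBA1B. These are descriptions of likeness over 7 points, each the mean of 2 libraries.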

How the data were processed

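RNA of 14 libraries (A549, 5 groups; SUM159, 2 groups; 2 technical duplicates each) was sequenced by the authors in strand-specific libraries with single 65-base reads. The authors deposited 1 table of raw read counts per library, whole numbers for 60683 Ensembl gene identifiers with 9 summary lines, which were left out of totals. The submitters' processing notes name HISAT2 2.2.1, HTSeq and GRCh38 without stating their roles; the annotation release and the strand setting of the counting are not given in the sources used here. Symbols and exons came from GENCODE 44 (60370 identifiers matched) and promoters from RefSeq on GRCh38.p14. Totals of 13060374 to 21149256 counts limit the precision of the rarer genes, and counting intervals (95%, exact) cover counting error only, since reads carry no molecular identifiers.

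CPM used the total count on genes, after the study's total-count scaling. Differences were tested with edgeR 4.0.16 in R 4.3.3 (filterByExpr, quasi-likelihood F test, Benjamini-Hochberg adjustment over all genes tested, threshold 0.05) in 1 fit of 10 A549 libraries (15780 genes), 1 of 4 SUM159 libraries (15055) and, between lines, 1 of all 14 (17279). A standard error is the size of the log2 change over the root of its F statistic. An exact permutation test of 2 against 2 cannot go below p = 0.333. The scripts were tested on simulated counts in which every gene had the same small spread, unlike the real libraries. There 6.70% of calls were false for the combination against untreated A549. For PF-06873600 against untreated SUM159 6.76% were, both above the 0.05 threshold. Alternatives were TMM factors, DESeq2 1.42.0, no filter, the replicate number as a block, only the compared groups, and each library left out; a block with crossed numbers was chosen after seeing the data. Named genes were all members and, per related list, up to 3 genes with the largest change past the threshold and at least 10 CPM in the higher group. The members, lists and tests were chosen with earlier results of these data known. SUM159 cells given palbociclib or indisulam were not analysed here. The ends of the alpha coding sequences are not reported here.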

Additional observations from a re-analysis of the deposited data

Results flagged for a closer look

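The response to 0.5 µM PF-06873600 over 7 days differed between SUM159 and A549 for 9 of the 10 tubulin genes, by the interaction term of edgeR's quasi-likelihood test over all 14 libraries. The log2 fold change in SUM159 minus that in A549 was -1.37 for TUBA1A, -1.96 for TUBA1B, -1.67 for TUBA1C and -2.22 for TUBA4A among the alpha genes. Among the beta genes it was -1.78 for TUBB, -1.14 for TUBB2A, -2.23 for TUBB3, -1.96 for TUBB4B and -2.40 for TUBB6. The 9 differences remained past the threshold with TMM scaling, with DESeq2, without a filter, with the replicate block and without any 1 library. The difference between the lines had the same direction in mitosis genes, with 10 of 12 lower and 1 higher in SUM159 against 27.2% and 25.8% of all 17279 genes. Within A549, however, 11 of the 12 fell and 0 rose with PF-06873600 (27.8% and 28.5% of all genes), while all 10 tubulin genes rose. In SUM159, 12 fell and 0 rose (35.6% and 38.1% of all genes). The part of mitosis genes in the tubulin differences was not tested.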

How the results depend on the processing

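Of 1522 refits of single members, 1464 kept direction and side of the threshold. With the replicate block the counts of members called were the same as without it, 5, 5, 9, 6, 7, 5 and 10 in A549 in the order of the comparisons above, 8 in SUM159, and 9 and 10 between the lines, and no call changed. Deviations of same-numbered libraries were correlated without a common sign, from -0.30 (palbociclib against untreated) to 0.27 (indisulam against untreated). The numbers were therefore not taken as pairs. Crossing the numbers of palbociclib or SUM159 libraries left 5, 6, 5 and 10 members called.

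Palbociclib was the weak comparison: 0 members passed when only its own groups were fitted, and 2 to 5 with 1 library left out. TUBA1A was lost without untreated replicate 1 (adjusted p = 0.0534) or either palbociclib library (0.0715 and 0.0756), TUBA1C without either palbociclib library (0.0863 and 0.104) and TUBB4B without palbociclib replicate 2 (0.0598), while TUBB2A passed without palbociclib replicate 1 (-0.64, adjusted p = 0.0406). Under indisulam, TUBB4B passed without untreated replicate 2 (-0.17), and TUBA4A was lost with only the compared groups (adjusted p = 0.0584). For the combination against indisulam, TUBB3 was lost without any 1 of the indisulam and combination libraries (adjusted p = 0.0545 to 0.187), TUBB4B without either indisulam library or combination replicate 2 (0.0711 to 0.280), and TUBA1C passed without either untreated library (-0.12). In SUM159, 9 members passed without the filter, TUBB2B being added.

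Signs turned only for members that had not passed. With TMM and DESeq2 TUBB6 under palbociclib was 0.00601 and 0.00608. For the combination against palbociclib, TMM gave TUBA1B -0.0324, TUBA1C -0.0854 and TUBB4B -0.0822, and DESeq2 gave TUBA1C -0.0382 and TUBB4B -0.0349. The interaction of TUBB3 was 0.00148 with DESeq2. With 1 library left out, the log2 values ran from -0.109 to 0.116 for TUBB6 under palbociclib, from -0.0205 to 0.206, -0.105 to 0.307, -0.192 to 0.219 and -0.00155 to 0.410 for TUBB2B under indisulam, under the combination against untreated and against indisulam, and in the interaction. Against palbociclib they ran from -0.00668 to 0.131 for TUBA1B, from -0.00923 to 0.0241 for TUBA1C and from -0.0771 to 0.0949 for TUBB4B, and in the interaction from -0.125 to 0.0127 for TUBA1B and from -0.385 to 0.260 for TUBB3. The cause of these turns was not tested.

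Depth limits TUBB2B and TUBB3, which had 2 to 119 and 13 to 74 counts a library. Shared sequence, unknown strand use in counting and technical duplicates limit the rest, and levels per length depend on the transcript length assumed.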
